A study of Homo sapiens with 6 samples.

Results

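The genes described here encode the folding, quality control and sensing machinery of the endoplasmic reticulum (ER), the compartment in which secreted and membrane proteins fold. The list holds 34 genes of the unfolded protein response and of ER-associated degradation, taken as a named list by their known roles; no threshold on expression chose them, but earlier results of these data were known when the list was made. Of these, 32 had a row of their own among the 18404 genes measured. PDIA3 and ATF6B had no row that the platform annotation assigns to them alone and were not analysed here. The cells were BE(2)-C, a human neuroblastoma line derived as a clone and carrying MYCN amplification. Treated cells received 5 µM BIX01294, which inhibits EHMT2 (G9a) and EHMT1 (GLP), the enzymes that dimethylate lysine 9 of histone H3, for 24 h, and control cells received 0.05% DMSO for 24 h. The growth medium of both groups held dialyzed serum. Each group had 3 samples, 1 array per sample; the series text calls the samples independent, but no label says that they came from separate cultures, so p-values measure the spread between these samples.

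Misfolded protein in the ER is sensed by 3 membrane proteins, IRE1 (encoded by ERN1), ATF6 and PERK (EIF2AK3). IRE1 splices the mRNA of the transcription factor XBP1, ATF6 is cleaved to release a transcription factor, and PERK slows translation and favours translation of ATF4. ATF6 and XBP1 are known to induce lumenal chaperones, disulfide isomerases and degradation factors, while ATF4 induces genes of amino acid supply and of the stress response. In ER-associated degradation, lectins and reductases hand misfolded proteins to a membrane ubiquitin ligase built on SYVN1 and SEL1L, and the cytosolic ATPase VCP pulls them out for the proteasome.

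All values are log2 expression values of the deposited table, and a difference is BIX01294 minus DMSO. Array medians lay between 6.94 and 7.01, and each array correlated more closely with its own group (r 0.995 to 0.996 across rows) than with the other group (0.991 to 0.992). Of 10 fixed adrenergic neuroblastoma markers 8 were measured, 2 higher (GATA2 and ISL1) and 2 lower (PHOX2A and GATA3) in BIX01294. Their summed linear level was 26011 to 26828 in BIX01294 and 26037 to 26897 in DMSO. The largest parts of this sum were MYCN (mean 13.46 in BIX01294 and 13.54 in DMSO) and DBH (12.34 and 12.21), which differed in opposite directions without passing. The sum therefore says little about the other markers. Of 12 fixed mesenchymal or Schwann-like markers 11 were measured, 3 higher (VIM, CD44 and S100B) and 1 lower (TWIST1), and their summed linear level was 5705 to 5945 in BIX01294 arrays and 4768 to 4974 in DMSO arrays. The median difference of these 11 markers was 0.01, and the rise of their sum came mostly from VIM (mean 11.22 in BIX01294 and 10.40 in DMSO). The part of these marker differences in the ER results was not tested. In bulk RNA, a change in the kinds of cells present and a change in RNA per cell cannot be told apart.

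Of the 32 measured genes 16 rose, 5 fell and 11 did not pass limma's test at an adjusted p of 0.05, and the median difference was 0.16. Over all 18404 genes 12.9% rose and 10.7% fell, 23.6% in all, and the median difference was -0.01. The BIX01294 arrays lay wholly above the DMSO arrays in 16 of the 32 genes, where 21.4% of all genes did so, and wholly below them in 8, where 18.7% of all genes did so; groups without overlap made up 40.1% of all genes. The median over the list was 0.18, 0.17 and 0.17 above the DMSO mean in the 3 BIX01294 arrays. By role, 13 of 16 chaperones, co-chaperones, other lumenal proteins and disulfide isomerases rose and 0 fell, 2 of 11 degradation genes rose and 2 fell, and the 3 measured sensors and transcription factors of the list (XBP1, ATF6 and ERN1) fell. HSPA13, DNAJB9 and P4HB were the chaperones and isomerases that did not pass, and the sensor EIF2AK3 (PERK), which is outside the list, did not pass either (difference 0.11, adjusted p 0.224).

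**Figure D1:**
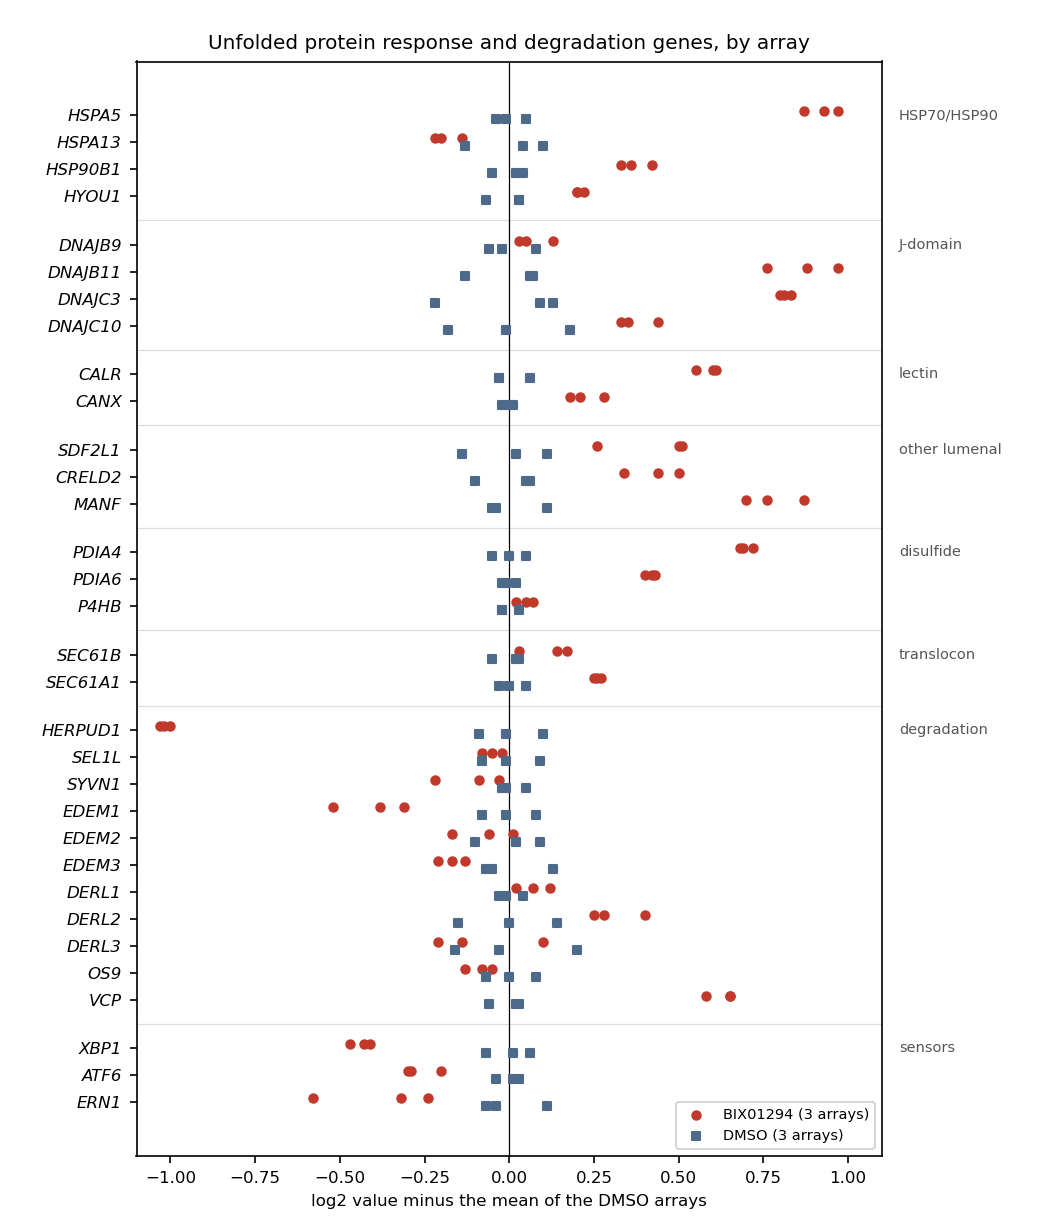
Each point is the log2 value of 1 array minus the mean of the 3 DMSO arrays for that gene, with BIX01294 as red circles above DMSO as blue squares. Chaperones and disulfide isomerases lie mostly to the right of 0, led by HSPA5 at 0.93, whereas HERPUD1 at -1.01, XBP1, ATF6 and ERN1 lie to the left.

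HSPA5 (BiP), the HSP70 chaperone of the ER lumen that also holds the sensors inactive, had 12.86, 12.92 and 12.96 in BIX01294 arrays, against 12.04, 11.98 and 11.95 in DMSO arrays. The groups did not overlap, and HSPA5 rose 1.90-fold (difference 0.93 ± 0.056 SE, adjusted p 4.21e-05). HSP90B1 (GRP94), the HSP90 chaperone of the ER, had 12.81, 12.84 and 12.90 in BIX01294 arrays and 12.52, 12.50 and 12.43 in DMSO arrays, and rose 1.29-fold (adjusted p 0.00242). HYOU1, an HSP70-related protein that exchanges nucleotide on BiP, averaged 10.00 ± 0.014 in BIX01294 and 9.79 ± 0.059 in DMSO (SD, n = 3 each). Its rise of 1.16-fold (adjusted p 0.0258) was lost on leaving out any single array, with adjusted p-values between 0.0546 and 0.0739. HSPA13, a microsomal HSP70-like protein, went the other way in value, with 9.97, 9.99 and 10.05 in BIX01294 against 10.23, 10.29 and 10.06 in DMSO. It did not pass (difference -0.19, adjusted p 0.0986), and without DMSO replicate 3, its lowest DMSO array, it was lower with an adjusted p of 0.0259; it also passed as lower under quantile normalization (-0.24, adjusted p 0.0296).

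The stretch before the HSPA5 start site is shown because it holds the ER stress element, the site through which ATF6 and the CCAAT-binding factor NF-Y are known to act. The element was searched on both strands as CCAAT, any 9 bases and CCACG; capitals mark it, and it lies at positions -66 to -48 from the start (RefSeq, GRCh38.p14, chr9:125241344-125241593, minus strand, written 5′ to 3′ along the gene).
HSPA5: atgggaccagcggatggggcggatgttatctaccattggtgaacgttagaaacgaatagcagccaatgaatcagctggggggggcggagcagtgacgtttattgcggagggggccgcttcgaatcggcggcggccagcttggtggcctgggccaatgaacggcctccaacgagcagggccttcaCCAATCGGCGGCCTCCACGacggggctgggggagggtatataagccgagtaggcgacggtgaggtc

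The J-domain co-chaperones, which hand clients to BiP and stimulate its ATPase, rose in 3 of 4 cases. DNAJB11 had 11.11, 10.90 and 11.02 in BIX01294 arrays, against 10.20, 10.21 and 10.01 in DMSO arrays, a rise of 1.83-fold (0.87 ± 0.079 SE, adjusted p 0.000266). DNAJC3 (p58IPK), which also inhibits eIF2alpha kinases, had 9.27, 9.24 and 9.25 in BIX01294 and 8.53, 8.57 and 8.22 in DMSO, a rise of 1.76-fold (adjusted p 0.000674). DNAJC10, a co-chaperone that also reduces disulfides of proteins bound for degradation, rose 1.30-fold (0.38 ± 0.091 SE, adjusted p 0.0187). Leaving out BIX01294 replicate 3 or DMSO replicate 1 ended the call for DNAJC10 (adjusted p 0.0738 and 0.0561). DNAJB9 (ERdj4), a co-chaperone that returns BiP to IRE1, stood apart from these: it had 8.38, 8.40 and 8.48 in BIX01294 and 8.29, 8.43 and 8.33 in DMSO. Its groups overlapped, and the 95% interval of its difference ran from -0.07 to 0.21 (adjusted p 0.471).

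The lectin chaperones bind newly made glycoproteins. CALR, the soluble lectin, had 12.04, 11.99 and 12.05 in BIX01294 arrays and 11.41, 11.50 and 11.41 in DMSO arrays, and rose 1.50-fold (0.58 ± 0.055 SE, adjusted p 0.000303). CANX, its membrane-bound relative, averaged 13.25 ± 0.048 in BIX01294 and 13.03 ± 0.016 in DMSO (SD, n = 3 each), a rise of 1.17-fold (adjusted p 0.0177) that did not pass without BIX01294 replicate 3 (adjusted p 0.0678), DMSO replicate 1 (0.0571) or DMSO replicate 2 (0.0636). The 3 other lumenal proteins, known as targets of ER stress, also rose. MANF, a secreted and ER-resident trophic factor, had 10.86, 10.75 and 10.69 in BIX01294 and 9.95, 10.10 and 9.94 in DMSO, a rise of 1.71-fold (adjusted p 0.000278). SDF2L1, a partner of ER co-chaperones, rose 1.34-fold (0.43 ± 0.090 SE, adjusted p 0.0108), with BIX01294 replicate 3 at 8.22 below the other two at 8.46 and 8.47. CRELD2, a cysteine-rich protein with disulfide isomerase activity, rose 1.34-fold as well (0.42 ± 0.069 SE, adjusted p 0.00348).

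Disulfide isomerases, which form and rearrange disulfide bonds in the lumen, rose in 2 of the 3 measured. PDIA4 (ERp72) had 11.47, 11.50 and 11.46 in BIX01294 arrays, against 10.83, 10.78 and 10.73 in DMSO arrays. The groups lay far apart, and it rose 1.62-fold (0.70 ± 0.054 SE, adjusted p 0.000132). PDIA6, which also acts on the lumenal part of IRE1, had 12.74, 12.76 and 12.77 in BIX01294 and 12.36, 12.32 and 12.33 in DMSO, a rise of 1.34-fold (adjusted p 0.000868). P4HB, the founding disulfide isomerase and a subunit of prolyl 4-hydroxylase, averaged 12.43 ± 0.022 in BIX01294 and 12.38 ± 0.029 in DMSO (SD, n = 3 each); its groups overlapped and the 95% interval of its difference ran from -0.07 to 0.17 (adjusted p 0.541). A dimmer row of P4HB differed by 0.16 and did not pass either (adjusted p 0.0918 over all rows). At the translocon, the channel through which proteins enter the ER, SEC61A1 rose 1.20-fold (0.26 ± 0.052 SE, adjusted p 0.0089), and SEC61B, a small subunit, differed by 0.11 with a 95% interval of -0.03 to 0.25 (adjusted p 0.232).

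**Figure D2:**
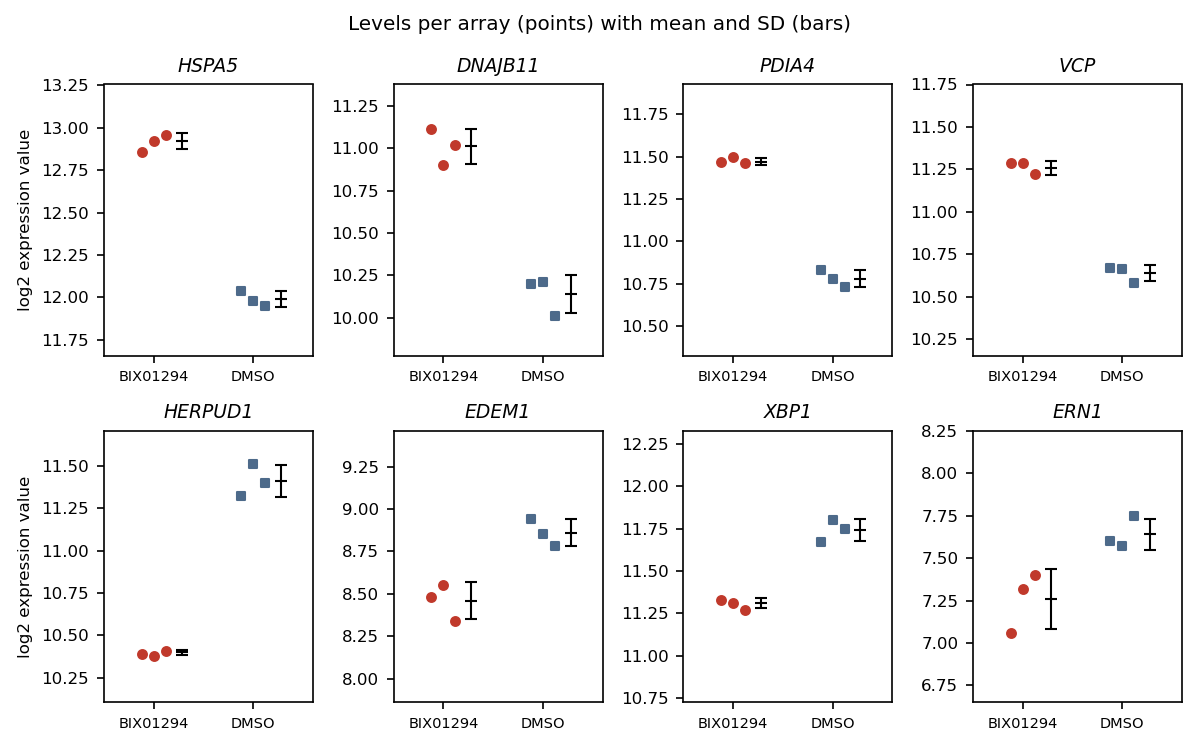
Log2 expression values of 8 genes in each array, BIX01294 as red circles left of DMSO as blue squares, with the mean and SD of 3 arrays beside the points; every panel spans the same height on the log2 axis. HSPA5, DNAJB11, PDIA4 and VCP are higher in BIX01294 and HERPUD1, EDEM1, XBP1 and ERN1 lower, with no overlap between groups in any of the 8.

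Degradation genes did not move as 1 group. HERPUD1, a membrane protein that binds the SYVN1 ligase complex and helps organise it, had 10.39, 10.38 and 10.41 in BIX01294 arrays, against 11.32, 11.51 and 11.40 in DMSO arrays. It fell 2.02-fold (difference -1.01 ± 0.062 SE, adjusted p 4.32e-05), the largest absolute difference among the 32 genes. EDEM1, a mannosidase-like lectin that marks glycoproteins for degradation, had 8.48, 8.55 and 8.34 in BIX01294 and 8.94, 8.85 and 8.78 in DMSO, and fell 1.32-fold (-0.40 ± 0.073 SE, adjusted p 0.00568). VCP, the ATPase that extracts proteins from the membrane, had 11.29, 11.29 and 11.22 in BIX01294 arrays, against 10.67, 10.66 and 10.58 in DMSO arrays, and rose 1.55-fold (0.63 ± 0.055 SE, adjusted p 0.000234). DERL2, a derlin thought to help move proteins back across the membrane, rose 1.25-fold (0.32 ± 0.083 SE, adjusted p 0.0263). That rise was lost without DMSO replicate 1 or 3 or without any 1 of the BIX01294 replicates (adjusted p 0.052 to 0.0829), which left VCP as the riser in this group.

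The other 7 degradation genes did not pass. SEL1L and SYVN1, the scaffold and the ubiquitin ligase at the core of the complex, differed by -0.05 (95% interval -0.19 to 0.09) and -0.12 (-0.27 to 0.03). The lectin OS9 differed by -0.09 (-0.23 to 0.05), and the mannosidases EDEM2 and EDEM3 by -0.08 (-0.25 to 0.09) and -0.17 (-0.32 to -0.01). EDEM3 was wholly lower in BIX01294, with 9.88 to 9.96 against 10.02 to 10.22 in DMSO, but had an adjusted p of 0.121; under quantile normalization it passed as lower (-0.22, adjusted p 0.0391). DERL1 differed by 0.07 (-0.05 to 0.20). DERL3 differed by -0.09 (-0.34 to 0.17) and stood at percentile 43.0 of all genes in level, with no detection call to tell it from background. Of the 11 degradation genes 8 had a difference below 0, and the group's median was -0.09. Of these 8, HERPUD1 and EDEM1 alone passed. Over all genes 9505 of 18404 had a difference below 0, with a median of -0.01.

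The stretch before the start site of HERPUD1, like HSPA5 a marker gene of the list, is shown too. It holds an ER stress element II (searched as ATTGG, any 1 base and CCACG). It also holds a C/EBP-ATF element (searched as TGATGNAA), the kind of site that ATF4 binds with C/EBP partners. That element was in HERPUD1 alone among 31 members with a window, and in 3.62% of all windows. A match in 1 of 31 is near that share, and its part in the fall of HERPUD1 was not tested. Capitals mark the C/EBP-ATF element first, read on the opposite strand at positions -176 to -169 from the start, and then the ER stress element II at -117 to -107 (RefSeq, GRCh38.p14, chr16:56931892-56932141, plus strand).
HERPUD1: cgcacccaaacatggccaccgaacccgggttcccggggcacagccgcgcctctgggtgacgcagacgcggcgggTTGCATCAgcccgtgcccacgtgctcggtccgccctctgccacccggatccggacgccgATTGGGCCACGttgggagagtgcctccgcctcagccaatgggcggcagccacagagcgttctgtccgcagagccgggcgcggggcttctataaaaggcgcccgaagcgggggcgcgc

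HSPA5 and HERPUD1, the marker genes of the list, had the highest and the lowest difference in it. The gap between them is given as a description. An exact permutation test of the gap gave p 0.1, the smallest that 3 against 3 arrays allow. The pair lies at opposite ends of the list and was chosen with earlier results of these data known. For both reasons the test cannot decide. HSPA5 minus HERPUD1 was 2.47, 2.54 and 2.55 in BIX01294 arrays, against 0.72, 0.47 and 0.55 in DMSO arrays. The gap was wider by 1.94 on the log2 scale in BIX01294 arrays than in DMSO arrays.

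The transcription factor gene XBP1 and the sensor genes ATF6 and ERN1 fell. XBP1, whose mRNA IRE1 splices, had 11.33, 11.31 and 11.27 in BIX01294 arrays, against 11.67, 11.80 and 11.75 in DMSO arrays, and fell 1.35-fold (-0.43 ± 0.057 SE, adjusted p 0.00133). The gene-level value sums spliced and unspliced XBP1. ATF6 had 11.06, 11.07 and 11.16 in BIX01294 and 11.39, 11.32 and 11.37 in DMSO, and fell 1.20-fold (-0.26 ± 0.055 SE, adjusted p 0.0107). ERN1 had 7.06, 7.32 and 7.40 in BIX01294 and 7.60, 7.57 and 7.75 in DMSO, with no overlap, and fell 1.30-fold (-0.38 ± 0.095 SE, adjusted p 0.0221). ERN1 was close to the middle of all genes in level and was not shown to be above background, and leaving out DMSO replicate 1 or DMSO replicate 3 ended its call (adjusted p 0.0516 and 0.0715).

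Windows of 300 bases around the start sites were available for 31 of the 34 genes (250 bases before to 50 after each start). The exact ER stress element was found in 7 of the 31 and in 0.0769% of all 35116 windows, and ER stress element II in 3 of the 31 and in 0.0541% of windows. The genes were listed by their known roles in this response, so the higher share among them is a description and tests nothing. Of the 7 genes with the first element, HSPA5, HSP90B1, CALR, CANX, CRELD2 and PDIA6 rose and XBP1 fell. Of the 3 with the second, HYOU1 and SDF2L1 rose and HERPUD1 fell. The core of the UPR element, which XBP1 and ATF6 are known to bind, was searched as TGACGTG. It was found in HYOU1, DNAJC10, SEC61A1 and VCP, all of which rose, and in 1.97% of windows. In HYOU1 it overlaps an ER stress element II. Of all 32 measured members 16 rose, with or without an element. Outside the list, 63 of 400 measured genes with the core rose and 49 fell, beside 13.5% and 10.9% of all measured genes with a window. A link between element and direction was not tested. The C/EBP-ATF element was found in HERPUD1 alone among the 31 and in 3.62% of windows. These percentages are of windows, whereas the members are counted as genes, which can have several windows. Of the 27305 genes with a window, 25 held the ER stress element and 19 the ER stress element II. The core of the UPR element was held by 654 and the C/EBP-ATF element by 1217. A match describes the letters in the window, and near matches were not searched.

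The elements of the other members, with 8 bases on each side, are shown so that their letters can be compared outside the fixed ends that the search required. The first 6 hold the ER stress element, with 9 free bases, and HYOU1 and SDF2L1 the ER stress element II, with 1 free base. Capitals mark the element, and those that begin with CGTGG are read on the opposite strand. All are from RefSeq, GRCh38.p14, written along the gene's strand: HSP90B1 at chr12:103930313-103930347 (plus), CALR at chr19:12938376-12938410 (plus), CANX at chr5:179698770-179698804 (plus), CRELD2 at chr22:49918546-49918580 (plus), PDIA6 at chr2:10812845-10812879 (minus), XBP1 at chr22:28800595-28800629 (minus), HYOU1 at chr11:119057266-119057292 (minus) and SDF2L1 at chr22:21642106-21642132 (plus). HSP90B1 and HYOU1 each hold another copy further from the start.
HSP90B1: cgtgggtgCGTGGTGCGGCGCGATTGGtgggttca
CALR: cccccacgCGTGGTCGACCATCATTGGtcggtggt
CANX: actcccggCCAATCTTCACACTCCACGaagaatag
CRELD2: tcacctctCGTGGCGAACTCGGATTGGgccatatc
PDIA6: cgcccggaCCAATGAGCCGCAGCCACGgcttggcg
XBP1: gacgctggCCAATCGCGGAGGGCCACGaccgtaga
HYOU1: gcctgggaCGTGGTCCAATgagtacgc
SDF2L1: ctcggaagCGTGGACCAATcaaaaccc

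**Figure D3:**
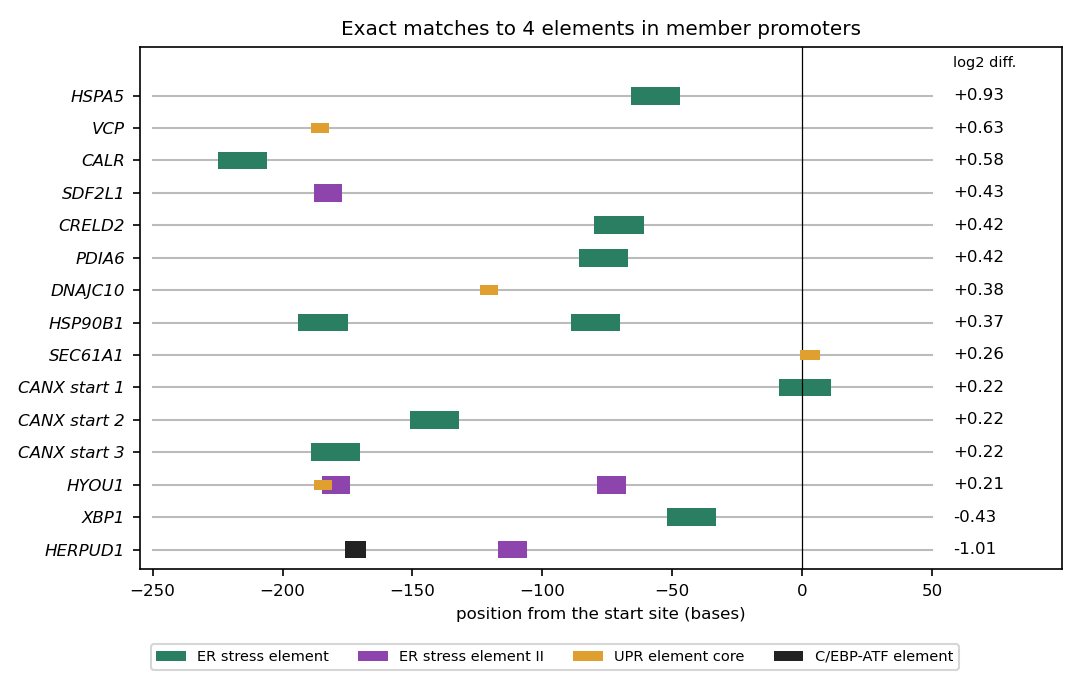
Horizontal lines are promoter windows of list members with at least 1 match, from 250 bases before to 50 bases after the start site, with coloured bars at exact matches to 4 elements and the gene's log2 difference (BIX01294 minus DMSO) at the right; CANX appears once for each of 3 annotated starts that share 1 stretch. Genes that rose fill the upper rows, and XBP1 (-0.43) and HERPUD1 (-1.01), at the bottom, carry ER stress elements too. HERPUD1 also holds the C/EBP-ATF element, which was in 3.62% of all windows. The part of this element in its fall was not tested.

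A wider set of 106 other ER genes, 101 of them measured, held 25 genes that rose and 14 that fell, with a median of 0.06. These counts are 24.8% and 13.9% of those measured, beside 12.9% and 10.7% of all genes. The count of rising genes was 14, 19 and 15 without BIX01294 replicates 1, 2 and 3, and 15, 21 and 16 without DMSO replicates 1, 2 and 3. The falling genes numbered 7, 9 and 9 without BIX01294 replicates 1, 2 and 3, and 6, 9 and 15 without DMSO replicates 1, 2 and 3. Counts over all genes dropped as well without 1 array. They went from 2379 to between 1699 and 1910 rising genes, and from 1970 to between 1318 and 1818 falling genes.

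Among 23 other degradation genes 10 rose (43.5%) and 4 fell (17.4%), beside 12.9% and 10.7% of all genes. UFD1 and NPLOC4, the cofactors that recruit VCP to ubiquitinated proteins, rose with it. UFD1 had 10.42, 10.47 and 10.39 in BIX01294 arrays and 9.94, 9.90 and 9.78 in DMSO arrays (1.47-fold, adjusted p 0.000618), and NPLOC4 rose 1.31-fold (adjusted p 0.00123). SVIP, a small membrane protein that binds VCP and inhibits degradation, rose 1.42-fold (adjusted p 0.00116). HERPUD2, the paralog of HERPUD1, fell 1.29-fold (adjusted p 0.0018), the rhomboid protease RHBDD1 fell 1.29-fold (adjusted p 0.00286), and the VCP cofactor UBXN6 fell 1.23-fold (adjusted p 0.00804). Those 6 genes kept their calls on leaving out each array in turn, while the count of rising genes was 6 without BIX01294 replicate 1 or 2.

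Translocation and signal peptidase genes rose in 8 of 18 cases (44.4%) and fell in 1 (5.56%), beside 12.9% and 10.7% of all genes. SEC11C, a catalytic subunit of signal peptidase, rose 1.64-fold, with 9.22, 8.96 and 8.97 in BIX01294 and 8.34, 8.35 and 8.32 in DMSO (adjusted p 0.00061). SRPRB, a subunit of the receptor for the signal recognition particle, rose 1.28-fold (adjusted p 0.00239) and SPCS3, another signal peptidase subunit, 1.24-fold (adjusted p 0.0125), whereas SEC63, which brings BiP to the translocon, fell 1.18-fold (adjusted p 0.0141). The rises numbered 5 without BIX01294 replicate 1 or DMSO replicate 3 and 4 without BIX01294 replicate 3 or DMSO replicate 1. In ER exit and retrieval 3 of 12 rose (25%) and 1 fell (8.33%), small counts to set beside 12.9% and 10.7% of all genes. The COPII coat genes SAR1B (1.36-fold, limma adjusted p 0.00147), SEC24A (1.27-fold, adjusted p 0.00583) and SEC23B (1.22-fold, adjusted p 0.0079) rose. KDELR1, a receptor that returns lumenal proteins to the ER, fell (1.23-fold, adjusted p 0.00818).

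The counts of the remaining wider ER lists moved with the setting and were near the shares of all genes. In these lists 7.69% to 8.7% of genes rose and 15.4% to 17.4% fell, beside 12.9% and 10.7% of all genes. Among 23 other folding enzymes 2 rose and 4 fell, but 7 rose and 7 fell with an intensity trend and robust estimation, 4 rose and 2 fell after centring, and 0 rose without BIX01294 replicate 1, BIX01294 replicate 3 or DMSO replicate 1. The transmembrane disulfide isomerase TMX3 was higher by 0.32 and the proline isomerase PPIB by 0.20, and the largest falls were those of ERP29, by 0.34, FKBP11, by 0.29, and FKBP7, by 0.22. Of these 5, ERP29 passed without each array in turn, and FKBP11 lost its call without DMSO replicate 1 (the others lost theirs without at least 4 of the 6 arrays). Among 13 genes of N-glycosylation and glucose trimming, RPN1, an oligosaccharyltransferase subunit, rose by 0.24, and PRKCSH and MOGS, of the glucosidases that trim glycans, fell by 0.23 and 0.22. A mixed list of 12 regulators held 1 rise, WFS1 (0.23), an ER membrane protein, and 2 falls, MBTPS1 (-0.20), the protease that makes the first cut in ATF6, and NFYA (-0.19), a subunit of NF-Y. Each gene of these last 2 lists lost its call without at least 3 of the 6 arrays in turn, and NFYA, MBTPS1 and MOGS, like FKBP7, also lost theirs after centring each array on its median (adjusted p 0.118, 0.107, 0.0841 and 0.0977).

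**Figure D4:**
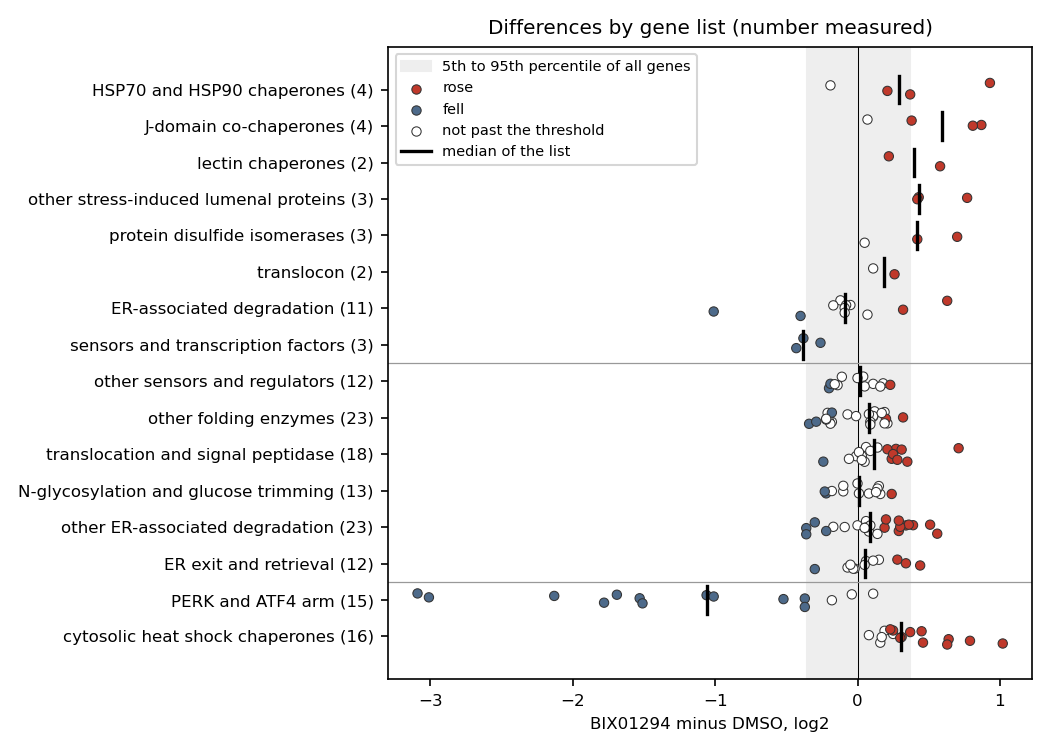
Each point is the log2 difference (BIX01294 minus DMSO) of 1 gene, red where it rose, blue where it fell and white where it did not pass; black bars are list medians, and the grey band runs from the 5th to the 95th percentile of all genes, -0.36 to 0.37. The member lists stand above the first line, the wider ER lists between the lines and the 2 comparison lists below. J-domain co-chaperones have a median of 0.60, sensors and transcription factors -0.38 and the PERK and ATF4 arm -1.06.

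The PERK and ATF4 arm is a list of EIF2AK3 (PERK), ATF4 and further stress genes, set beside the members for comparison. Whether PERK acted on these genes here was not tested, and EIF2AK3 itself did not pass (difference 0.11, adjusted p 0.224 in limma). Of the 15 genes of this comparison list 12 fell (80%) and 0 rose, with a median of -1.06 and differences from -3.09 to 0.11. Over all genes 10.7% fell and 12.9% rose. The glutathione-degrading enzyme CHAC1 (-3.09), the mTORC1 inhibitor DDIT4 (-3.01) and the secreted glycoprotein STC2 (-2.13) differed most. DDIT3 (CHOP) fell by 1.53 and ATF4 itself by 0.52. Of 19 listed cytosolic heat shock chaperones, the counterpart in another compartment, 16 were measured. Of these 16, 11 rose (68.8%) and 0 fell, with a median of 0.30, led by HSPH1 (2.03-fold), CHORDC1 (1.73-fold) and DNAJA1 (1.56-fold). The 16 measured ER chaperones, other lumenal proteins and disulfide isomerases had a median of 0.42. These groups come from the same 6 arrays, and no test of the difference between them was made.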

How the data were processed

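RNA of 6 samples was measured on Affymetrix arrays after Trizol extraction and terminal labelling, per the labels' protocols. The deposited table holds 1 log2 expression value per row and array; the log2 scale was read from the values themselves (1.93 to 14.93). Partek is the one tool named by the submitters' processing notes, and background correction, normalization and summarization are steps not given in the sources used here. No detection call is given, and precision is limited by having 6 arrays.

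The platform annotation gave a single symbol to 19158 of the 32321 rows, several to 1388 and none to 11775; 19128 of the first matched the RefSeq gene table of GRCh38.p14 by Entrez identifier and took its symbol. The row with the highest mean was kept for each of 18404 genes. The deposited log2 values entered limma 3.58.1 (R 4.3.3; lmFit and eBayes, treatment as the only term) unscaled, and two-sided p-values were adjusted by Benjamini-Hochberg over all 18404 genes, with 0.05 as threshold; standard errors and 95% intervals are the moderated ones. No filter on dim genes was used. The fit was tested on simulated data. No pair of arrays in a group held more than 40 identical values. Replicate numbers were not treated as pairs: deviations of same-numbered arrays correlated at 0.193, -0.176 and 0.0545.

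The members, the lists and the tests were chosen with earlier results of these data known. The genes named are all measured members and, from each other list, up to 3 rises and 3 falls with the largest differences past the threshold. ATF4, DDIT3, EIF2AK3 and the cell-type markers named were singled out after their values were seen. Promoter windows are those of RefSeq, GRCh38.p14, the sequences were not matched to the array's probes, and a gene counted as holding an element if any of its windows did. The alternatives were 2 other scalings, a filter on dim genes, the mean of a gene's rows, another variance model, a block for the replicate number, array weights, a minimum change, all rows and leaving out each array.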

Additional observations from a re-analysis of the deposited data

How the results depend on the processing

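Of the 21 member calls, 16 kept their direction and their side of the threshold in the 14 alternatives other than the minimum change, wherever the gene was tested. CANX, DERL2, DNAJC10, ERN1 and HYOU1 lost theirs in at least 1 of these, EDEM3 and HSPA13 gained one as lower, and no call changed direction. Without 1 array at a time, 12 to 14 members rose and 4 or 5 fell, 3018 to 3663 genes changed, 14 to 21 of the wider ER genes rose and 6 to 15 fell, and the gap between HSPA5 and HERPUD1 was 1.89 to 2.01. With a tested minimum log2 change of 0.5, 145 genes changed, 1 member rose (HSPA5), 1 fell (HERPUD1), and 0 of the wider genes rose and 0 fell in limma's treat, which asks a stricter question; the other member differences are not shown to exceed that size. In the wider set, 16 rose and 9 fell when all 32321 rows were tested, 9 fell after median centring, and 39 rose with an intensity trend and robust estimation. With the replicate number as a replicate block, 7 of the wider set fell, 15 members rose and 5 fell, HYOU1 being the lost call (adjusted p 0.0542 in limma), and 3641 genes changed. With an intensity trend and robust estimation, 7 other folding enzymes rose and 7 fell, 4 genes of N-glycosylation rose and 3 fell, 5 of ER exit rose, and 3 of the mixed regulator list rose and 4 fell; after centring, 4 folding enzymes rose and 2 fell, 2 regulators rose and 0 fell, and 1 gene of N-glycosylation rose and 1 fell. Under quantile normalization 4 genes of N-glycosylation and 3 regulators fell. With the block, 0 folding enzymes rose and 2 fell, and 0 regulators and 0 genes of N-glycosylation fell; with all rows, 0 folding enzymes rose and 2 fell, and 0 regulators rose and 0 fell (limma throughout). As deposited, 54.7% of changed genes were higher, against 49.7% after quantile normalization and 64.3% after centring. The filter on dim genes left out DERL3 and ERN1. The cause of these changes was not tested.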

Other observations

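The elements were also counted over all measured genes with a promoter window, members or not. Of 14230 such genes 13.5% rose and 10.9% fell, with a median difference of 0.00. The exact ER stress element lay in the windows of 19 measured genes, of which 7 rose and 3 fell. Outside the list, 1 of 12 such genes rose (TRIM5, a restriction factor against retroviruses, by 0.39) and 2 fell (ZNF17, by 0.56, and TMEM120A, by 0.17), and their median was -0.05. FICD, which modifies BiP, differed by 0.13, SERP1 by 0.09 and ERO1B by -0.07, and none of these passed (adjusted p 0.191, 0.255 and 0.679 in limma). ER stress element II lay in 17 measured genes, 4 higher and 2 lower, and outside the list 2 of 14 rose, SHCBP1 by 0.50 and RAD9A by 0.22, and 1 fell, RUVBL2 by 0.19. These genes were named after their values were seen.

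The C/EBP-ATF element lay in the windows of 511 measured genes, of which 45 rose (8.81%) and 86 fell (16.8%), with a median of -0.03 and the lowest difference at -3.09. The core of the UPR element lay in 404, of which 67 rose (16.6%) and 49 fell (12.1%), with a median of 0.02. Without the members it lay in 400, of which 63 rose and 49 fell, with a median of 0.01. These shares are descriptions over genes, which are not independent, and no test of them was made.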
